A study of Mus musculus with 2 samples.

Results

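45 mouse genes of the antiviral interferon program were followed through single-cell transcriptomes of leukocytes that had entered melanomas. The genes were listed by symbol, and the list was chosen with earlier results of these data known. Of the 45, 44 had a row among the 27998 genes of the matrices, since Mx2 had none. YUMM1.7, a mouse melanoma cell line, was grown under the flank skin of human APOE2 knock-in or human APOE4 knock-in mice, after 100000 cells had been injected together with Matrigel. Tumours were taken on day 19, and CD45+ cells that excluded the dye DAPI, from 6 mice per genotype were sorted, 10000 from each mouse, and pooled to 60000 for 1 library per genotype, with 5000 cells targeted on a Chromium droplet system. The comparison asked how the immune side of these tumours differed between hosts with either APOE allele. Every animal in both pools was a knock-in bearing a human allele, mice with mouse Apoe alone were not analysed here, and neither the age nor the sex of the mice is given in the labels used here. Pooling left no way to read the spread between mice, so each value compares 2 libraries, and differences between the genotypes and between the pools cannot be told apart.

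Interferon-stimulated genes are switched on when interferons bind their receptors on a cell. Receptor-bound kinases then activate a transcription factor complex that contains IRF9 and binds a short DNA element, the interferon-stimulated response element, in front of these genes. The proteins made bind or cut viral RNA, halt translation, tag other proteins with the ubiquitin-like ISG15, or hold virus particles at the membrane. In tumours without virus the same genes are commonly read as a trace of interferon reaching the leukocytes.

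The response element in the promoters of the listed genes is shown first, because it is the sequence feature that most of their textbook regulation rests on. Promoters came from RefSeq on build GRCm38.p6, as 300 bases per start site, 250 before it and 50 after, and 36 of the 45 genes matched an entry. The core searched was GAAA, any 2 bases and GAAA again, on both strands, with overlapping matches allowed. It was found in 16 of the 36 members (44.4%) and in 1079 of 27025 genes (3.99%). In the 250 bases before the start alone it was found in 14 members (38.9%) and in 3.46% of genes. In the full window the core was also found in 5 of 5 guanylate-binding protein genes with an entry. It was found in 16 of 48 other genes of interferon signalling (33.3%), and both groups are taken up below. A STAT dimer site, TTC, any 3 bases and GAA, was found in 7 of the 36 members (19.4%) and in 9.55% of genes. These are matches to letters, not measured binding.
The 250 bases before the start of Isg15, chr4:156200819-156201068 on the minus strand, hold 3 overlapping copies of the core, in capitals:
Isg15 promoter: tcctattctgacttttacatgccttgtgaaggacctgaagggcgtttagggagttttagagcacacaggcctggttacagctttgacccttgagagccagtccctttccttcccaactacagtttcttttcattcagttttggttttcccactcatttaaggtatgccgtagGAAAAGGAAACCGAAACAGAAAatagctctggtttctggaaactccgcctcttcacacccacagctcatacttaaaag
In the sites below, 10 bases flank the capital core on each side, the strand bearing the core is written 5′ to 3′, the coordinates are those of the core, and of overlapping cores the one farther from the start is in capitals:
Ifit1 and Ifit1bl2, site farther from Ifit1 chr19:34640785-34640794: actgagactgGAAAGTGAAActgaagcctg
Ifit1 and Ifit1bl2, site nearer to Ifit1 chr19:34640804-34640813: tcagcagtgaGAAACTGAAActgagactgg
Ifit3, far site chr19:34583373-34583382: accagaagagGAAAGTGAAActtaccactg
Ifit3b, far site chr19:34607769-34607778: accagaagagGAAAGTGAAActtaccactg
Ifit3, near site chr19:34583407-34583416: gaggaaagtaGAAACTGAAAcagacttaaa
Ifit3b, near site chr19:34607803-34607812: gaggaaagtaGAAACTGAAAcagacttaaa
Oas3 chr5:120777725-120777734: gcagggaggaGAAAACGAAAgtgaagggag
Bst2 chr8:71537593-71537602: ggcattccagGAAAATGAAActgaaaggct
Rsad2 chr12:26456563-26456572: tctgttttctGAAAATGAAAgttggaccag
Slfn8 chr11:83020849-83020858: tgcttttgggGAAAACGAAActgctcaaat
Trim30a chr7:104465220-104465229: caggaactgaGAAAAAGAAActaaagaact
Ifit1 and Ifit1bl2 start from opposite strands of the same stretch and share both sites. The sites of Ifit3 and its near-copy Ifit3b were identical over the printed bases. Of 28 sites, counted once for each member and start site, 24 lay within 200 bases before the start. Among members measured in at least 10 cell labels, the 14 with the core had a median APOE4/APOE2 difference of 1.20 on the log2 scale and the 20 with an entry but no core had 1.09, with ranges of 0.59 to 1.80 and 0.27 to 2.24 that overlapped.

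The matrices held 41207514 unique molecules (UMIs) in 5063 barcodes for APOE2 and 37349222 in 5689 barcodes for APOE4, of which the authors annotated 4665 and 5385 cells with 26 cell labels. Median depth was 7160 and 5560 UMIs per annotated cell. The libraries shared 9 barcode sequences, 8 among annotated cells. Values are counts of a gene summed over the cells of a label in a library, scaled to the UMIs of those cells as counts per 1000000 (CPM), and brackets around a ratio give the exact conditional binomial 95% interval, which covers counting error only. A gene entered in a label with at least 20 UMIs there over both libraries. Compared were 24 labels, since basophils (12 and 11 cells) and skin resident Mø (47 and 8 cells) had fewer than 20 cells in at least 1 library. Each label scored highest on the markers of the lineage in its name, except that all 4 labels named MDSC scored highest on neutrophil markers, the label named Diverse on monocyte and macrophage markers before T cell markers, and the label named Monocytic DCs on monocyte and macrophage markers before those of dendritic cells (DCs). The label named stromal cells held little Ptprc, the gene of CD45 on which cells were sorted, with 42.2 and 59.2 CPM. The labels were made by the authors from the same cells, so that expression of the listed genes may itself have helped to place a cell in a label, and this was not tested.

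Together the 44 genes were at a higher level in the APOE4 library than in the APOE2 library in each of the 24 labels. Over all annotated cells they held 220361 of the APOE2 UMIs (5656 CPM) and 445897 of the APOE4 UMIs (12370 CPM). These pooled values also depend on how many cells each label held, so they are not a change per cell. M-MDSC 2 and Monocytes 2, the labels with the highest levels, held 36 and 206 cells in APOE2 and 190 and 526 in APOE4. Within them the ratio of the summed members was 1.37 and 1.29. The median member was higher in APOE4 in 24 of 24 labels, and in 14 labels the median difference was at least 1 on the log2 scale, a doubling. Of 887 combinations of gene and label, 857 (96.6%) had a ratio above 1, against 52.2% over all combinations of gene and label that passed the same minimum. The counting interval lay above 1 in 730 combinations, below 1 in 4, and included 1 in 153. A ratio of at least 2 was seen in 454 combinations (51.2%), against 3.93% over all genes, and a 2-fold lower value in 2, Ifitm3 in B cells and Helz2 in G-MDSC 2, against 3.27%. Under other ways of processing some single ratios crossed 1, up to 34 of 650 in thinned cells, and with median-of-ratios scaling 11 of 887, each of which had an interval including 1.

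**Figure D1:**
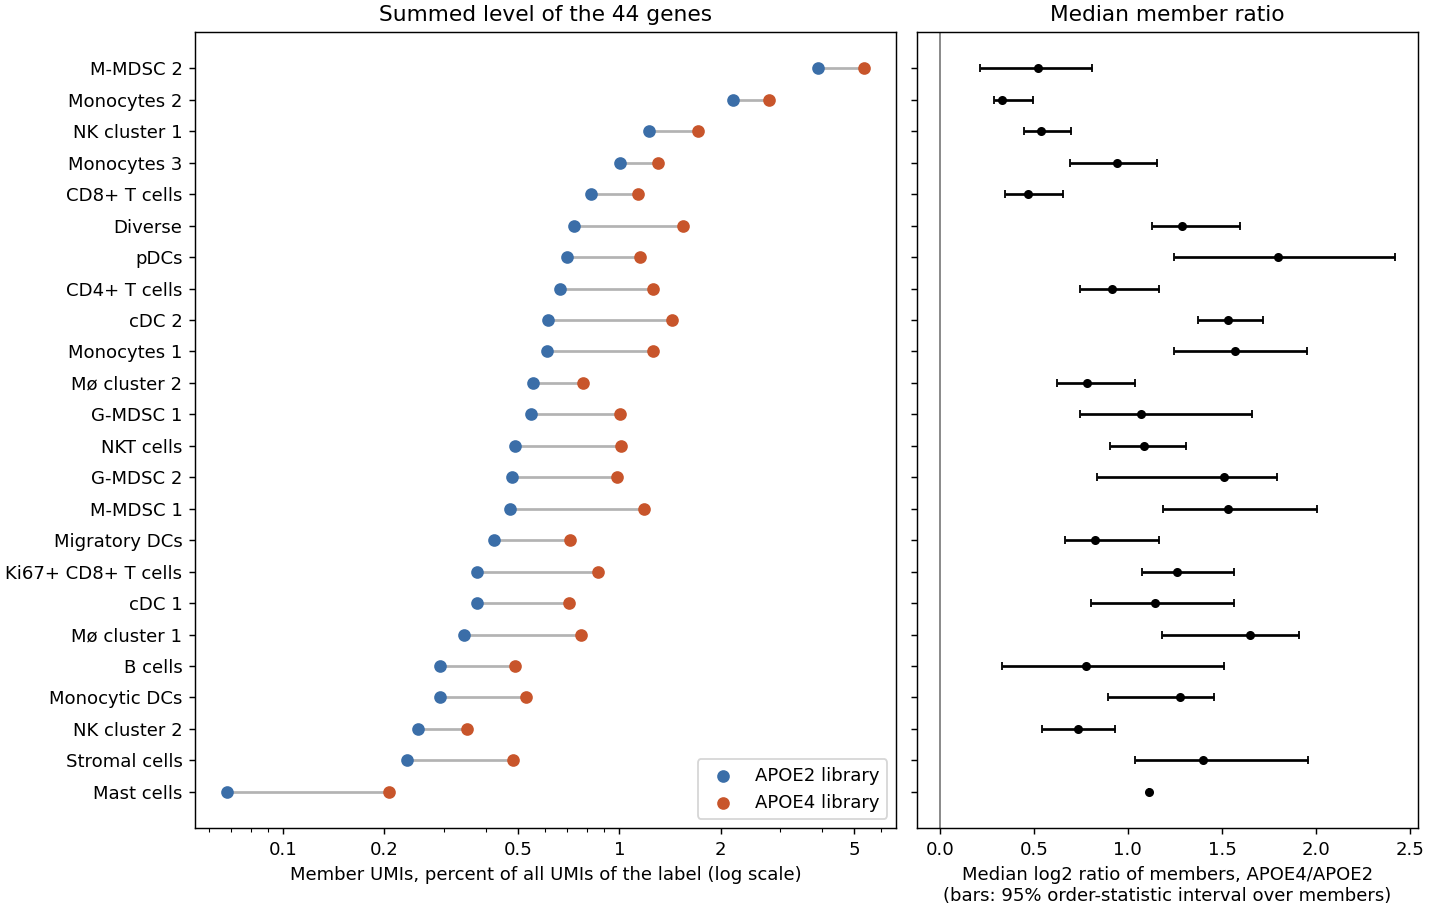
Left, UMIs of the 44 genes as percent of all UMIs of each label (log scale) in the APOE2 (blue) and APOE4 (orange) library; right, the median log2 ratio of the members with a 95% order-statistic interval over members, not drawn for mast cells with 5 members. All 24 labels have the orange point to the right, and the gap is narrow at the top, where M-MDSC 2 and Monocytes 2 stand.

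The order of the labels was much alike in both libraries, with a Spearman correlation of 0.933 over the 24 labels, given as a description. M-MDSC 2, a label with neutrophil markers, had the highest level, and its members made up 3.90% and 5.36% of all UMIs in APOE2 and APOE4. Monocytes 2 followed with 2.17% and 2.79%, and NK cluster 1, natural killer cells, with 1.22% and 1.72%. The lowest levels were those of mast cells at 0.0680% and 0.206%, of stromal cells at 0.233% and 0.483% and of NK cluster 2 at 0.251% and 0.351%. The NK labels thus lay near opposite ends of the order in both libraries. Free RNA in the droplets adds to every label of a library, and its part was not tested.

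The 4 smallest medians came from labels among the 5 highest in APOE2. In Monocytes 2 the median member differed by 0.33 [0.29, 0.49] (log2, with the interval over members), and 1 of 43 members reached a 2-fold higher value, against 1.92% of all genes tested in that label. In M-MDSC 2 the median was 0.52 [0.22, 0.81], with 6 of 38 members against a background of 14.0%, so that the share of members past 2-fold was about that of all genes there. In NK cluster 1 it was 0.54 [0.45, 0.70], with 3 of 40 members against 5.92%. CD8+ T cells, which kill cells bearing a recognised peptide, had 0.47 [0.35, 0.66] and 1 of 42 members against 4.88%. These labels also held more cells in APOE4 than in APOE2: 206 and 526 in Monocytes 2, 36 and 190 in M-MDSC 2, 33 and 113 in NK cluster 1 and 113 and 477 in CD8+ T cells. This was not particular to them. It was also seen in pDCs, the label with the largest median (111 and 205), in NK cluster 2 (214 and 631) and in further labels. Fewer cells in APOE4 were found in others, such as Mø cluster 1 (481 and 245). Over the 24 labels the Spearman correlation of the median ratio with the APOE2 level was −0.32, a description in which both measures use the same APOE2 counts.

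Merging labels of a lineage, a check added after the values had been seen, gave the M-MDSC labels a median above that of either label alone. Summed, M-MDSC 1 and M-MDSC 2 went from 0.699% to 2.48% of UMIs, with a median of 1.95 [1.60, 2.37] and 36 of 39 members at least 2-fold higher, against 6.68% of genes. M-MDSC 2 held 36 of the summed cells in APOE2 and 190 in APOE4, beside 515 and 453 of M-MDSC 1. Most of the summed cells were thus of M-MDSC 1 in both libraries, and the part held by M-MDSC 2 was larger in APOE4. By member UMIs, which the sums use, M-MDSC 2 held 2433 beside 4170 of M-MDSC 1 in APOE2. In APOE4 it held 19276 beside 9441, so that the larger part came from M-MDSC 2 there. A summed ratio changes with such a mix as well as with the ratios within labels, so it is not read as a change within cells. The weight of each in the summed median was not tested. The labels' own medians were 1.53 and 0.52. Monocytes 1 to 3 together had 1.07 [0.95, 1.16] and 27 of 43 members against 2.69%, and both NK clusters together 0.56 [0.45, 0.75] and 2 of 41 members against 2.77%.

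The largest label medians were found among myeloid and dendritic cells. Plasmacytoid dendritic cells (pDCs), known as producers of type I interferon, had 1.80 [1.25, 2.42], with 29 of 40 members at least 2-fold higher against 3.93% of genes. Mø cluster 1, a macrophage label, had 1.65 [1.18, 1.91] with 37 of 43 against 3.52%, and Monocytes 1 had 1.57 [1.25, 1.95] with 34 of 42 against 3.53%. Conventional dendritic cells of cDC 2 had 1.53 [1.37, 1.72] with 37 of 43 against 4.65%, and M-MDSC 1 had 1.53 [1.19, 2.0] with 28 of 37 against 6.18%. The intervals run over member genes of 1 library per genotype, and members are not replicates, so no order among labels is drawn from them. In G-MDSC 2 the median of 1.51 [0.84, 1.79] rested on 29 and 28 cells, with 14 of 23 members against 5.98%.

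Values in between were seen in the other myeloid and non-immune labels. The Diverse label had 1.29 [1.13, 1.59] with 31 of 43 members against 3.30%, and stromal cells had 1.4 [1.04, 1.95] with 26 of 38 against 3.13%. In the label named Monocytic DCs the median was 1.28 [0.89, 1.46], with 26 of 42 against 3.04%, and in cDC 1 it was 1.14 [0.80, 1.56], with 23 of 39 against 2.31%. G-MDSC 1 had 1.07 [0.74, 1.66] with 14 of 27 against 3.95%. Monocytes 3 had 0.94 [0.69, 1.16] with 19 of 40 against 2.74%, Mø cluster 2 had 0.78 [0.62, 1.04] with 15 of 42 against 2.56%, and migratory DCs had 0.82 [0.66, 1.16] with 16 of 38 against 2.58%. In mast cells 5 members entered, with a median of 1.11 and 3 of 5 against 4.08%.

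Among lymphocytes, cycling Ki67+ CD8+ T cells had a larger median, 1.26 [1.07, 1.56] with 30 of 40 members against 4.99%, than the CD8+ T cells described above, a difference that was not tested. NKT cells had 1.09 [0.91, 1.31] with 22 of 39 against 4.11%, CD4+ T cells 0.92 [0.74, 1.16] with 19 of 42 against 3.07%, and NK cluster 2 0.73 [0.55, 0.93] with 10 of 38 against 3.16%. B cells, with 36 and 62 cells, had 0.78 [0.33, 1.51] and 10 of 23 members against 12.9%, the background percent being high in this thinly filled label. With the highest doublet scores left out, 4 of 17 members were past 2-fold there, and 1 of 3 among cells under 5% mitochondrial UMIs. Markers of monocytes and macrophages (Csf1r, Lyz2, C1qa, C1qb, Adgre1) moved with some comparisons: their sum was 1068 and 140 CPM in B cells, 767 and 112 in NK cluster 1, 220.0 and 81.7 in NK cluster 2 and 398 and 91.6 in CD8+ T cells, with 5 of 5, 5 of 5, 4 of 5 and 5 of 5 genes lower in APOE4. In stromal cells it was 860.2 and 298, in migratory DCs 1004 and 468, and in mast cells 493 and 36.3, with 5, 5 and 4 of 5 lower. The sum was higher in APOE4 in Ki67+ CD8+ T cells, at 961 and 1541 CPM, and in pDCs, at 258 and 432. It was also higher in CD4+ T cells, at 263 and 331, and in M-MDSC 2, at 689 and 984. In these labels 1, 0, 2 and 2 of 5 genes were lower. The 4 neutrophil markers (S100a8, S100a9, Csf3r, Retnlg) summed to 772 and 19.4 CPM in pDCs, to 440 and 106 in CD8+ T cells, to 439 and 969 in NK cluster 1 and to 345 and 963 in stromal cells. They summed to 42.5 and 710 CPM in Monocytic DCs, to 198 and 988 in Monocytes 3, to 30.1 and 392 in B cells, and in Ki67+ CD8+ T cells to 5884 and 6372. The 3 T cell markers (Cd3e, Cd3d, Cd3g) summed to 3399 and 4019 CPM in CD8+ T cells. In Ki67+ CD8+ T cells they summed to 1017 and 1602 CPM, less than the neutrophil markers in the same label. The part of such RNA from other cells in the members' ratios was not tested.

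**Figure D2:**
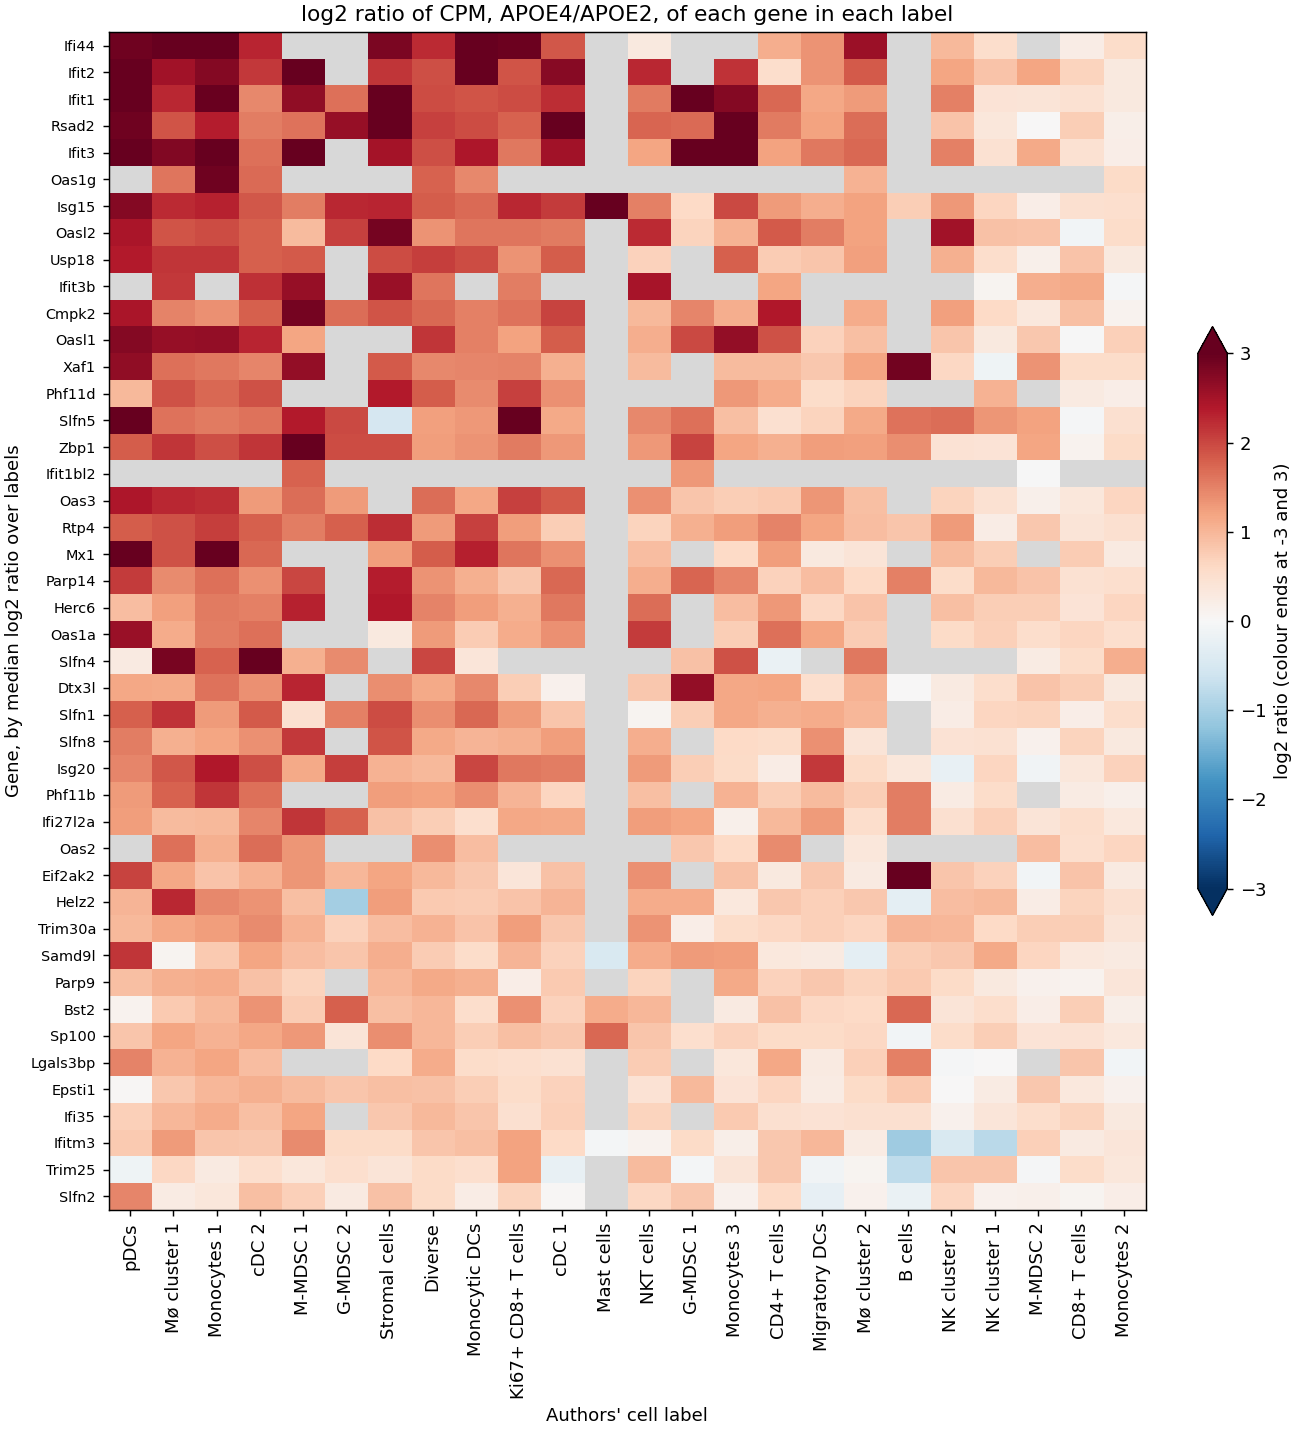
Colour gives the log2 ratio of CPM, APOE4/APOE2, for each gene (vertical axis, by median over labels) in each label (horizontal axis, by label median), and grey marks combinations under 20 UMIs. Red, higher in APOE4, fills most of the field, and of the 30 blue squares, ratios below 1, 6 belong to Trim25 and 4 to Ifitm3.

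Seen gene by gene, 42 members were measured in at least 10 labels, and the median of their label medians was 1.11 on the log2 scale, against 0.02 for all 8486 genes measured as widely. Of the 42, 27 had a median at least 2-fold higher in APOE4, against 1.07% of those genes, and 0 had a median 2-fold lower, against 0.330%. In 27 of the 42 the ratio was above 1 in every label measured, which held for 1.18% of all genes. Medians ran from 0.27 for Slfn2 to 2.24 for Ifi44. The spread over labels was wide: from lowest to highest label a member's log2 ratio covered a median of 2.39 units, against 1.66 for all genes. Such a range depends on the number of labels and on counts, and the 2 groups were not matched for either. With at least 100 UMIs required, 34 members remained in 10 or more labels, and their median span was 2.03 against 2.26 for the same members at 20 UMIs. No count of 0 was found in APOE4 among these combinations, and 4 were found in APOE2. Those 4 are given as lower bounds against a floor of 3 counts per library.

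**Figure D3:**
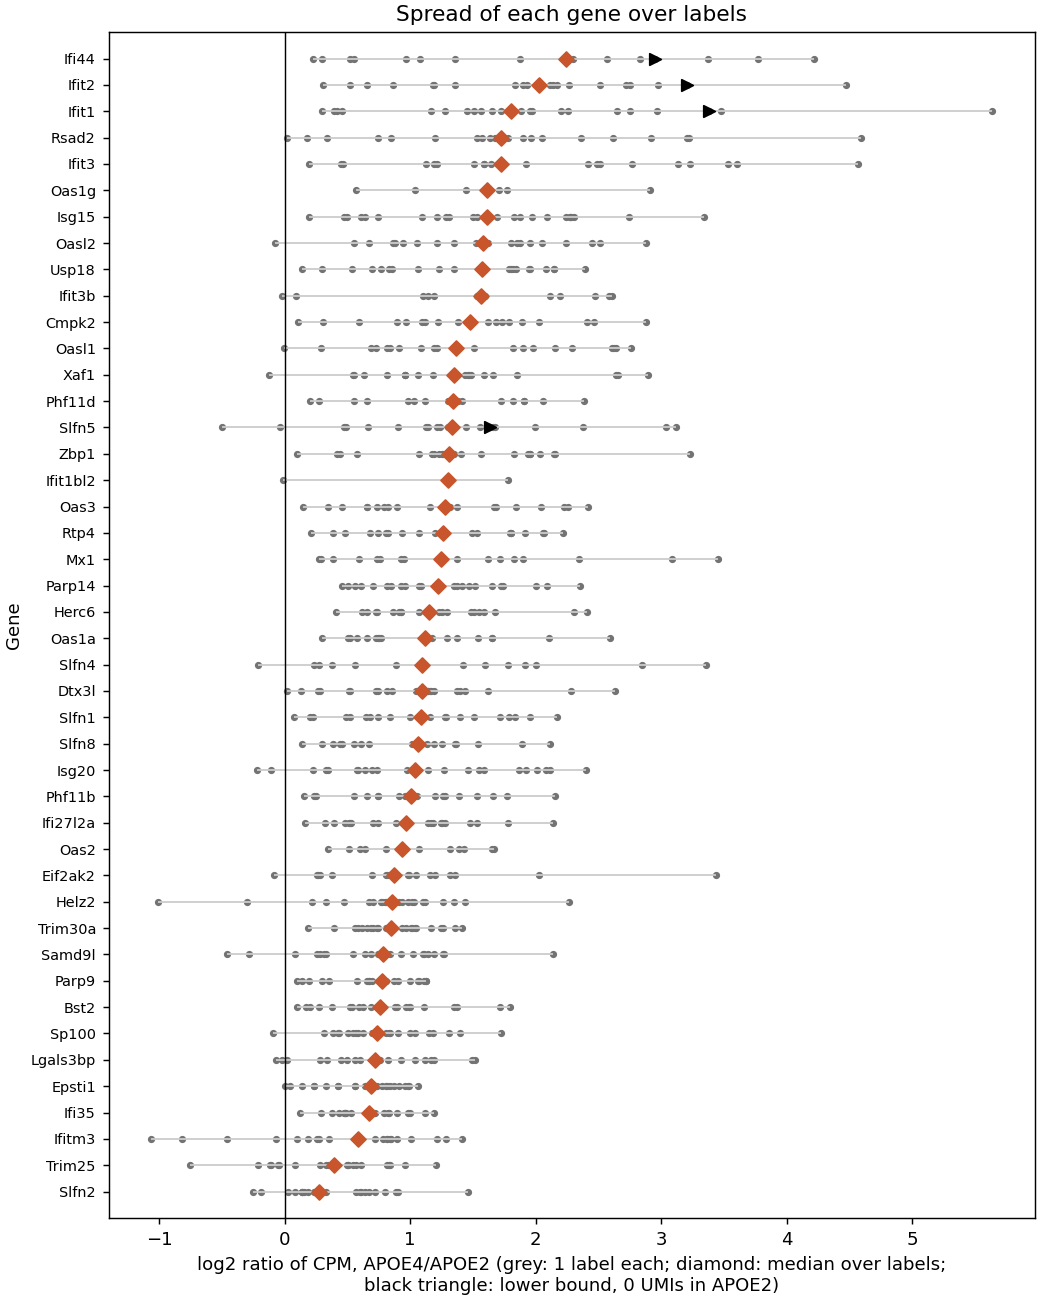
Each grey point is the log2 ratio of CPM, APOE4/APOE2, of a gene in 1 label, the diamond is the gene's median over labels, and black triangles are lower bounds where APOE2 had 0 UMIs. Ifit1, Rsad2, Ifit3 and Ifit2 span the widest ranges among members measured in at least 10 labels, and Parp9, Epsti1, Ifi35 and Trim30a the narrowest. The order depends on labels with few UMIs. At a minimum of 100 UMIs Ifit1 spans 3.17 in place of 5.34, and Ifit2 has the widest range, 4.17, followed by Ifi44 with 3.69. Trim25, at 1.05, is then narrower than Trim30a at 1.22.

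ISG15 conjugation was covered by 4 genes and 87 combinations, of which 43 were at least 2-fold higher, with a median of 0.96. Here and in the groups that follow, the share over all genes and labels is 3.93%. Isg15 (chr4:156199424-156200818) encodes the ubiquitin-like tag itself, and it was higher in APOE4 in 24 of 24 labels, with a median of 1.61. In the monocyte labels it stood at 97.4 and 482 CPM in Monocytes 1, 1850.4 and 2607 in Monocytes 2 and 74.7 and 293 in Monocytes 3 (APOE2 and APOE4). Among dendritic cells it stood at 156 and 667 CPM in cDC 1, 278 and 1018 in cDC 2, 393 and 839 in migratory DCs and 85.3 and 572 in pDCs. The ratios of these labels ran from 1.41 [1.35, 1.47] in Monocytes 2 to 6.71 [5.31, 8.58] in pDCs, the former being the label with the highest APOE2 level of the 7 and the latter among the lowest. In neutrophil-like cells Isg15 was at 6620.2 and 7589.8 CPM in M-MDSC 2, a ratio of 1.15 [1.03, 1.27], and at 410.3 and 1185 CPM in M-MDSC 1, a ratio of 2.89 [2.56, 3.27]. In lymphocytes it was at 488 and 677 CPM in CD8+ T cells, 122 and 586 in Ki67+ CD8+ T cells, 283 and 688 in CD4+ T cells, 1035 and 1609 in NK cluster 1 and 41.6 and 103 in NK cluster 2. The interval included 1 in B cells, with 8 and 36 UMIs. Its highest ratio, 10.2 [6.28, 17.2], came from mast cells, a label low in the other members.

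The enzymes around ISG15 differed among themselves. Usp18, which takes the tag off and also damps receptor signalling, had a median of 1.57 over 20 labels, from 1.10 [0.737, 1.71] in M-MDSC 2 (449 and 495 CPM) to 5.24 [3.41, 8.44] in pDCs (25.8 and 135 CPM). Herc6, a ligase that attaches it in mice, had 1.15 and was higher in 20 of 20 labels. Trim25, a ligase known for activating the RNA sensor RIG-I, had a median of 0.39 and was higher in 17 of 23 labels, with the interval above 1 in 12. In B cells Trim25 was lower, at 256 and 151 CPM, a ratio of 0.591 [0.378, 0.936] from 34 and 54 UMIs. In cDC 1 it was at 148 and 128 CPM and in pDCs at 306 and 283 CPM, and both intervals, 0.864 [0.704, 1.06] and 0.922 [0.793, 1.07], included 1.

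The IFIT family, proteins that bind foreign ends of viral RNA, had the largest differences as a group: 64 of 78 combinations were at least 2-fold higher, against 3.93% over all genes, and the median was 1.81. Ifit1 (chr19:34640871-34650009) was at 424 and 522 CPM in Monocytes 2, at 2597 and 3406 in M-MDSC 2 and at 448 and 597 in NK cluster 1, with ratios of 1.23 [1.13, 1.35], 1.31 [1.11, 1.55] and 1.33 [1.06, 1.69]. It was at 3.88 and 30.3 CPM in Monocytes 1, at 7.62 and 36.4 in Mø cluster 1 and at 18.2 and 202 in stromal cells, with ratios of 7.80 [4.22, 15.7], 4.78 [3.28, 7.08] and 11.1 [7.35, 17.5]. The first 3 of these labels had far more Ifit1 in APOE2 than the last 3, and a ratio and its APOE2 level share the same counts. In NK cluster 1 the log2 ratio, 0.41, was −0.046 among cells under 5% mitochondrial UMIs. The highest ratio, 49.8 [8.73, 1988] in pDCs, rested on 1 and 95 UMIs, and its interval is correspondingly wide. In G-MDSC 1 there were 0 and 29 UMIs, at least 10.4-fold higher in APOE4.

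Ifit3 and Ifit2 followed the same layout. Ifit3 was at 602 and 689 CPM in Monocytes 2, at 4.21 and 48.7 in Monocytes 1, at 8.55 and 58.3 in Mø cluster 1 and at 84.9 and 265 in cDC 2. Its ratios there were 1.14 [1.06, 1.23], 11.6 [6.53, 22.3], 6.82 [4.88, 9.71] and 3.12 [2.76, 3.54]. Ifit2 was at 481 and 594 CPM in Monocytes 2 and at 4.49 and 99.5 in pDCs, with ratios of 1.23 [1.14, 1.34] and 22.2 [8.49, 82.2]. In M-MDSC 1 Ifit2 had 0 and 25 UMIs, at least 9.21-fold higher in APOE4, while in CD4+ T cells its ratio of 1.43 [0.956, 2.18] included 1. Ifit3b, the near-copy of Ifit3, had a median of 1.56 over 12 labels. Ifit1bl2 entered in 3 labels and Oas1g in 7, too few for a median over labels to be read, and reads from such near-copies may be split or lost between genes.

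Genes that answer double-stranded RNA or unusual nucleic acid gave 89 of 147 combinations at least 2-fold higher and a median of 1.21. The OAS enzymes make short oligoadenylates that activate RNase L, and their medians were 1.12 for Oas1a, 0.93 for Oas2 and 1.28 for Oas3. Of the related Oasl genes, Oasl2 had a median of 1.58, from 0.945 [0.603, 1.53] in CD8+ T cells (55.0 and 52.0 CPM) to 7.34 [4.44, 12.8] in stromal cells (13.1 and 96.2 CPM). Oasl1 had 1.36. Eif2ak2, the kinase PKR that halts translation, had 0.87, and its highest ratio, 10.8 [1.79, 441] in B cells, came from 1 and 29 UMIs.

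Zbp1, a sensor of Z-form nucleic acid that can start necroptosis, was higher in APOE4 in 23 of 23 labels, with the interval above 1 in 22. It was at 82.5 and 316 CPM in Monocytes 1, 44 and 196 in Mø cluster 1, 73.8 and 326 in cDC 2 and 18.1 and 170.3 in M-MDSC 1, with ratios of 3.83 [3.33, 4.43], 4.45 [3.81, 5.21], 4.42 [3.89, 5.03] and 9.39 [5.58, 16.9]. In CD8+ T cells it was at 334 and 358 CPM, a ratio of 1.07 [0.895, 1.29]. In cycling Ki67+ CD8+ T cells Zbp1 was at 110.3 and 326 CPM, a ratio of 2.95 [2.30, 3.83].

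Mx and membrane proteins had the fewest large ratios, with 20 of 65 combinations at least 2-fold higher, a share still above the 3.93% over all genes, and a median of 0.78. Mx1, a GTPase that traps viral nucleocapsids, had a median of 1.25 over 18 labels, up to 10.9 [4.88, 30.3] in pDCs. Bst2, or tetherin, holds budding particles on the cell and is also a surface marker of mouse pDCs, used as such in the marker check here. It was at 4101 and 4395 CPM in pDCs, a ratio of 1.07 [1.03, 1.12], the lowest of its 23 labels and, at −0.018 on the log2 scale, just under 1 among cells under 5% mitochondrial UMIs. In cDC 2 it was at 284 and 723 CPM, in Ki67+ CD8+ T cells at 199 and 516 and in B cells at 135 and 445, with ratios of 2.55 [2.37, 2.73], 2.59 [2.14, 3.14] and 3.29 [2.01, 5.69]. The pDC label was thus the one with the highest median over all members and the lowest ratio of Bst2.

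Ifitm3, which blocks fusion of viruses in endosomes, was higher in 20 of 24 labels but lower in 3 with an interval that excluded 1. Among myeloid cells it was at 2384 and 4256 CPM in Monocytes 1, 4991 and 6389 in Monocytes 2, 5114 and 5814 in Monocytes 3, 842 and 2053 in Mø cluster 1 and 622 and 1657 in M-MDSC 1. The ratios of these labels ran from 1.14 [1.10, 1.18] in Monocytes 3 to 2.66 [2.41, 2.95] in M-MDSC 1. In B cells Ifitm3 was at 482 and 229.7 CPM, in NK cluster 1 at 605 and 343 and in NK cluster 2 at 85.1 and 61.9, with ratios of 0.477 [0.340, 0.672], 0.566 [0.449, 0.716] and 0.727 [0.559, 0.95]. In NK cluster 2 the direction turned among cells under 5% mitochondrial UMIs, with a log2 ratio of 0.18 in place of −0.46. Without the highest doublet scores Ifitm3 also turned in Ki67+ CD8+ T cells, from 1.21 to −0.11, and in pDCs, from 0.78 to −0.48. The B cell and NK labels are also among those in which the sum of monocyte and macrophage markers was lower in APOE4, and the part of that RNA in the Ifitm3 ratios was not tested. In CD8+ T cells, where the same marker sum was lower, Ifitm3 was at 165 and 199 CPM with a ratio of 1.21 [0.941, 1.57]. In Ki67+ CD8+ T cells and pDCs the marker sum was higher in APOE4.

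Enzymes acting on RNA and nucleotides had 45 of 66 combinations at least 2-fold higher and a median of 1.52. Rsad2, or viperin, makes a nucleotide that ends viral RNA chains. It was at 4408 and 4454 CPM in M-MDSC 2, 773 and 872 in Monocytes 2, 82.4 and 239 in cDC 2, 9.23 and 85.9 in cDC 1 and 19.1 and 144 in pDCs. The ratios were 1.01 [0.888, 1.15], 1.13 [1.06, 1.21], 2.90 [2.55, 3.30], 9.31 [5.60, 16.3] and 7.56 [4.62, 13.2], and the interval included 1 in M-MDSC 2 but in none of the other 4. The highest ratio of Rsad2, 24.1 [7.88, 119.8] in stromal cells, rested on 3 and 64 UMIs. Cmpk2, the neighbouring gene, which encodes a mitochondrial nucleotide kinase, had a median of 1.48. Isg20, an exonuclease, had 1.04, from 0.856 [0.586, 1.27] in NK cluster 2 (38.9 and 33.3 CPM) to 5.28 [3.64, 7.85] in Monocytes 1 (11.3 and 59.8 CPM).

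In the Schlafen family and Samd9l 59 of 127 combinations were at least 2-fold higher, with a median of 0.89, and the Schlafen genes, all on chromosome 11, differed among themselves. Slfn2, known for keeping T cells and monocytes quiescent, had the lowest median of all members, 0.27. It was at 149 and 125 CPM in migratory DCs and 240 and 449.6 in cDC 2, with ratios of 0.837 [0.680, 1.03] and 1.87 [1.73, 2.03]. Slfn5 had a median of 1.33 and was at 26.9 and 221 CPM in pDCs and 51.0 and 266 in M-MDSC 1, with ratios of 8.19 [5.42, 12.9] and 5.21 [3.76, 7.35]. The interval of Slfn5 included 1 in CD8+ T cells, at 141 and 137 CPM and 0.973 [0.736, 1.30], and in stromal cells, at 17.5 and 12.3 CPM and 0.705 [0.344, 1.4]. In B cells it had 0 and 25 UMIs, at least 3.10-fold higher in APOE4. Slfn1, Slfn4 and Slfn8 had medians of 1.09, 1.09 and 1.06, and Samd9l had 0.78. Schlafen genes resemble one another, and reads may be shared among them.

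Parp9, Parp14 and Dtx3l belong to an ADP-ribosylation module in which PARP9 and DTX3L form a complex, and all 65 of their combinations had a ratio above 1, although Parp9 in M-MDSC 2 and Dtx3l in B cells lay just under it with median-of-ratios scaling. At least 2-fold higher were 30 of them, and the median was 0.93. Parp9 had the narrowest span of all members, from 1.07 [0.801, 1.44] in CD8+ T cells (129.7 and 139 CPM) to 2.19 [1.44, 3.42] in Monocytes 3 (32.5 and 71.0 CPM). Dtx3l, which lies head to head with Parp9 on chromosome 16, spanned from 1.01 [0.407, 2.84] in B cells to 6.19 [2.11, 24.6] in G-MDSC 1, the latter on 4 and 23 UMIs. Parp14 ran from 1.37 [1.11, 1.71] in CD8+ T cells (222 and 304 CPM) to 5.12 [2.90, 9.64] in stromal cells (10.9 and 55.9 CPM).

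Nuclear and TRIM proteins gave 44 of 105 combinations at least 2-fold higher and a median of 0.91. Sp100, a component of PML nuclear bodies, was higher in 23 of 24 labels, with the interval above 1 in 20 and a median of 0.74. Trim30a, known as a brake on Toll-like receptor signalling, was at 138 and 368 CPM in cDC 2, 154 and 393 in NKT cells and 525 and 688 in Monocytes 2. Its ratios there were 2.66 [2.41, 2.94], 2.56 [1.88, 3.55] and 1.31 [1.21, 1.42], a narrow span compared with Ifit1. Phf11b and Phf11d had medians of 1.01 and 1.34. Helz2, a helicase-like coactivator, had 0.86, and its value in G-MDSC 2, 63.9 and 31.7 CPM, had a ratio of 0.497 [0.159, 1.34] that included 1.

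The remaining 7 induced genes had 60 of 147 combinations at least 2-fold higher and a median of 0.91. Ifi27l2a, a mitochondrial protein, was higher in 23 of 23 labels, each with an interval above 1. Among cells under 5% mitochondrial UMIs its log2 ratio turned from 1.25 to −0.21 in pDCs and from 0.89 to −0.22 in stromal cells. It was at 2921 and 3649 CPM in Monocytes 2, 1980.2 and 2210.3 in Monocytes 3, 367 and 1618 in M-MDSC 1 and 512 and 1482 in B cells, with ratios of 1.25 [1.21, 1.29], 1.12 [1.05, 1.18], 4.41 [3.90, 4.99] and 2.90 [2.25, 3.78]. Ifi44 had the largest median of all members, 2.24 over 17 labels. In Mø cluster 1 Ifi44 was at 2.04 and 38.0 CPM and in Monocytes 1 at 1.29 and 17.6, with ratios of 18.6 [9.95, 38.4] and 13.6 [4.97, 52.1], while in CD8+ T cells it was at 11 and 12.8, a ratio of 1.17 [0.435, 3.94]. In Ki67+ CD8+ T cells Ifi44 had 0 and 32 UMIs, at least 7.73-fold higher in APOE4. Epsti1 and Ifi35 stood at the other end, with medians of 0.69 and 0.67 and narrow spans. Epsti1 was at 462 and 462 CPM in NK cluster 2, a ratio of 1.00 [0.901, 1.11], and at 174 and 362 in cDC 2, a ratio of 2.09 [1.90, 2.29]. Ifi35 was at 76.1 and 82.5 CPM in NK cluster 2 and 38.5 and 87.7 in M-MDSC 1, with ratios of 1.09 [0.838, 1.42] and 2.27 [1.49, 3.54]. Rtp4, Xaf1 and Lgals3bp had medians of 1.26, 1.35 and 0.72.

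The same question was asked of single cells, with a score that counted member UMIs among 1500 UMIs drawn from each cell, so that cells of different depth could be set side by side. Cells under 1500 UMIs, 348 and 340, were left out. Over all remaining cells the median score was 6 and 14, and 10th to 90th percentiles were 1 to 20 in APOE2 and 3 to 44 in APOE4. These pooled scores also depend on the part of the cells that each label held, which differed between the libraries. The median was higher in APOE4 in 24 of 24 labels, the 90th percentile in 24, and the 10th percentile in 21, with 3 equal. Higher scores in APOE4 were seen through the range of cells in most labels at the low end as well as the high end. Cells are not replicates, and these are descriptions of the 2 pools.

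In the labels with large ratios the whole distribution stood higher. In cDC 2 the median score was 6 and 18, with 10th to 90th percentiles of 2 to 21 and 6 to 47, and a randomly drawn APOE4 cell scored higher than an APOE2 cell with a probability of 78.5% (ties split evenly). In Monocytes 1 the median was 8 and 17.5, the percentiles 2 to 18 and 8 to 32, and the probability 81.5%. In Mø cluster 1 the medians were 4 and 10, the percentiles 1 to 11 and 4 to 22.6, and the probability 80.2%. In each of these labels the APOE4 median lay just under the APOE2 90th percentile. In pDCs the medians were 9 and 15 with a probability of 77.1%, and in M-MDSC 1, where 207 and 171 cells were too shallow, 6 and 15 with 75.1%.

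The labels with small ratios given here overlapped more than those just described, though overlap did not follow the label median throughout. G-MDSC 1 and cDC 1, with medians of 1.07 and 1.14, had probabilities of 67.2% and 68.8%, below that of NK cluster 1. In CD8+ T cells the medians were 7 and 11.5, but the 90th percentiles were 39 and 42, and 11.2% of APOE4 cells lay above the APOE2 90th percentile, against 9.91% of APOE2 cells. The 75th percentiles, 15.5 and 24, stood further apart. In Monocytes 2 the medians were 30 and 39.5 and the probability 66.1%, in NK cluster 1 17 and 24 and 69.2%, and in NK cluster 2 3 and 5 and 62.1%. In M-MDSC 2 they were 58 and 73, from 17 and 125 cells of sufficient depth. Ifitm3 and Ifi27l2a, the members with the most UMIs, take a large part of the score, and without them the median was higher in 23 of 24 labels and level at 3 in B cells.

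**Figure D4:**
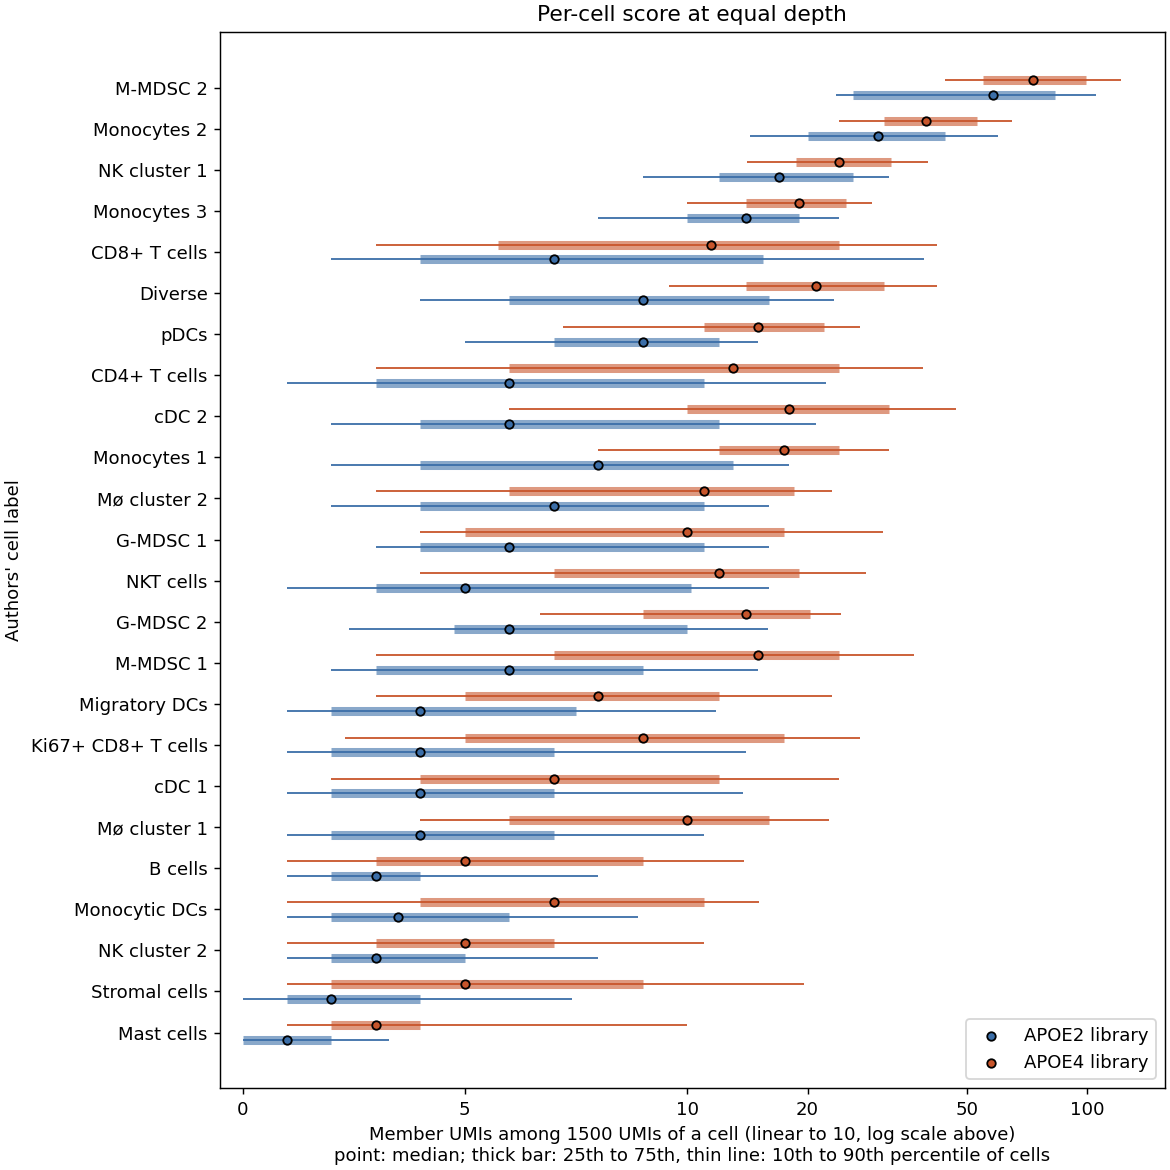
Member UMIs among 1500 UMIs of a cell (horizontal axis, linear to 10 and log above) for each label, with the median as a point, the 25th to 75th percentile as a thick bar and the 10th to 90th as a thin line, in APOE2 (blue) and APOE4 (orange). All 24 orange medians lie to the right of the blue ones, and the thin lines of CD8+ T cells end close together at 39 and 42.

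Upstream of the members, 57 other genes of interferon signalling were listed, of which 38 had at least 20 UMIs and 34 were measured in at least 10 labels. At least 2-fold higher medians were found for 6 of the 34, against 1.07% of all genes measured as widely, and 2-fold lower for 0, against 0.330%, and the median of the 34 gene medians was 0.16. Among ligands, Ifng had 338 and 2090 UMIs over all annotated cells and a median of 2.40 over the 10 labels where it entered. It was higher in APOE4 in 9 of these labels, and the largest log2 value, 6.32, came from cDC 2. The part of free RNA or doublets in the Ifng median was not tested. Summed over all annotated cells Ifng was at 8.68 and 58.0 CPM, a ratio of 6.68 [5.95, 7.52], while in NK cluster 2, its highest label in APOE2, its log2 ratio was −0.51. CD8+ T cells, its highest label in APOE4, were 113 of the APOE2 and 477 of the APOE4 cells. Ifnb1 had 0 and 7 UMIs, Ifnk and Ifnl2 had 0 and 2 each, Ifnab had 1 and 0, and the other listed interferon alpha genes had none in either library. These ligands were named after their counts had been seen. A count of 0 allows up to 3 UMIs per library, and no ratio is given at such counts.

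The receptors, 5 genes measured widely, had 0 medians past 2-fold. Ifnar1 and Ifnar2, the chains for type I interferon, had 0.16 and 0.12, and Ifngr1, for interferon gamma, had −0.12. Of 11 kinases, STATs and IRFs, 4 were past 2-fold, among them Irf7 (1.47), Stat2 (1.20) and Irf1 (1.07), themselves inducible by interferon. Irf7 was at 149 and 528 CPM over all annotated cells and was higher in 23 of 23 labels. Irf9, a part of the response-element complex, had 0.58, and the kinases Jak1 (0.08), Jak2 (0.11) and Tyk2 (0.22) lay near the level of all genes. Of 11 sensors and adaptors, 1 passed, Ifih1, the RNA sensor MDA5, with 1.24. Its relatives Dhx58 and Ddx58 had 0.97 and 0.83. Of 6 inhibitors 0 passed, with Socs1 at 0.62 and Socs3 at −0.10.

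Guanylate-binding proteins, GTPases that attack pathogen vacuoles and are known to respond strongly to interferon gamma, were set beside the members. Of 11 listed, 10 were found, Gbp6 on 2 rows and therefore left out, and of 7 measured in at least 10 labels 4 had medians past 2-fold, against the same 1.07%, with a median of 1.06. Both groups of genes are set side by side by label, with the members' median first and the Gbp median second on the log2 scale. In M-MDSC 1 the medians were 1.53 and 3.47, in M-MDSC 2 0.52 and 1.76, in Monocytes 3 0.94 and 2.23 and in Mø cluster 2 0.78 and 1.67, where the Gbp genes had the larger ratios. In Ki67+ CD8+ T cells they were 1.26 and 0.43, in CD4+ T cells 0.92 and 0.22, in pDCs 1.80 and 1.21 and in B cells 0.78 and −0.44, where the members had the larger ones. In NK cluster 1 both were near each other, at 0.54 and 0.53. The medians of M-MDSC 1, M-MDSC 2 and B cells each include 1 Gbp gene at its lower bound, and 4 to 7 Gbp genes entered in the labels named here. Gbp4, Gbp8 and Gbp9 overlap on chromosome 5, so their counts may be shared. With 1 library per genotype the difference between the groups of genes was not tested.

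**Figure D5:**
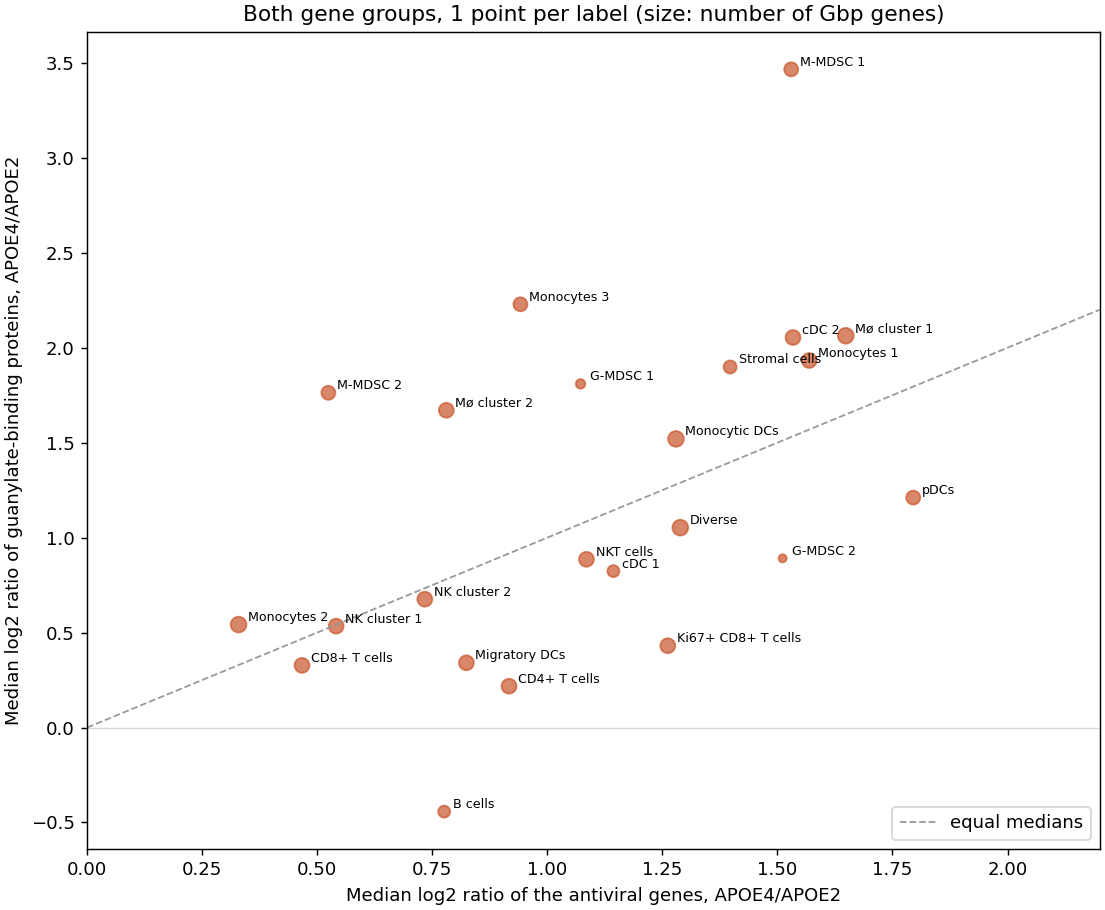
Each point is a label, with the median log2 ratio (APOE4/APOE2) of the antiviral members on the horizontal axis and of the Gbp genes on the vertical axis, point size growing with the number of Gbp genes and the dashed line marking equal medians. M-MDSC 1 lies far above the line at 1.53 and 3.47, and B cells (0.78 and −0.44) and Ki67+ CD8+ T cells (1.26 and 0.43) lie below it.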

How the data were processed

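Unique molecule (UMI) counts per gene and barcode were made by the authors with Cell Ranger 3.0.1, per the file headers, on build mm10, per the submitters' processing notes. The aligner settings, annotation and use of strand were not given in the sources used here. The authors' deposited metadata gave each annotated cell's label and its percent of mitochondrial UMIs, from Seurat 3.0.2 per the submitters' processing notes. UMI totals recomputed from the matrices differed from the metadata by up to 241 and 116 UMIs in a cell.

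Counts were summed per label and library with Python 3.11.15, numpy 2.4.6, scipy 1.17.1, pandas 2.3.3 and scanpy 1.11.5, and figures were drawn with matplotlib 3.10.9. A gene entered a label at 20 or more UMIs over both libraries, and labels needed 20 cells in each. Ratios are of CPM with exact conditional binomial 95% intervals, which cover counting error only. A count of 0 was set to a floor of 3 counts and gives a lower bound. With 1 library per genotype no test was made, and no p-value is given. The depth was 38959426 and 36046103 UMIs in annotated cells. The calculation was tested on simulated data. Doublets were not removed: Scrublet marked 0.171% and 0.297% of cells, too few to be relied on, so the 5% with the highest scores were left out as an alternative. Other alternatives thinned cells to 1500 UMIs, took cells under 5% mitochondrial UMIs, and changed the scaling, the denominator, the weight of cells and the minimum of UMIs.

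The members and lists were chosen with earlier results of these data known. In each role the 2 members with the most UMIs, the 4 widest and the 4 narrowest over labels, and members lower in a label with an interval below 1 were named by rule. The rule also covered the 38 pathway genes with at least 20 UMIs, which are counted in full, while those given by name are a selection made after their values had been seen. Values of the other members, such as Ifi44, Usp18 and Mx1, and the labels shown for each gene, were chosen after they had been seen. Near-identical copies (Ifit3 and Ifit3b, Oas1a and Oas1g, the Schlafen genes) may share reads, so their single values are uncertain. The values of 1 gene of the pathway list are not reported here.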

Additional observations from a re-analysis of the deposited data

Results flagged for a closer look

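Trim25 in B cells had a ratio of 0.591 [0.378, 0.936], APOE4 over APOE2, from 34 and 54 UMIs. In 12 other labels its interval lay above 1, up to 2.30 in Ki67+ CD8+ T cells. Ifitm3 had ratios of 0.477 [0.340, 0.672] in B cells, 0.566 [0.449, 0.716] in NK cluster 1 and 0.727 [0.559, 0.95] in NK cluster 2. Among cells under 5% mitochondrial UMIs the log2 ratio in NK cluster 2 turned from −0.46 to 0.18. In 18 other labels its interval lay above 1, up to 2.66 in M-MDSC 1. These 4 values are listed because labels moved in opposite directions beyond counting error, and with 1 library per genotype the difference between labels was not tested. The summed monocyte and macrophage markers were 1068 and 140 CPM in B cells, 767 and 112 in NK cluster 1 and 220.0 and 81.7 in NK cluster 2, and their part was not tested.

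Barcodes without an annotation, 398 in APOE2 and 304 in APOE4, enter no comparison above. They held the members at 3184 CPM in APOE2 and 4403 CPM in APOE4, against 5656 and 12370 CPM in annotated cells.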

How the results depend on the processing

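No paired analysis was possible because each genotype had 1 library, and for the same reason no replicate could be left out. The median member was higher in APOE4 in 24 of 24 labels under each of 8 other ways of processing, and in 22 of 22 without M-MDSC 2 and Monocytes 2, an alternative chosen after seeing the data, as were the summed labels. The share of combinations of gene and label with a ratio above 1 lay between 92.6% and 97.1%. Combinations at least 2-fold higher, 454 of 887, were 289 of 650 with cells thinned to 1500 UMIs and 295 of 651 at a minimum of 100 UMIs, where fewer genes enter. No label median changed direction, but single ratios did: 34 of 650 in thinned cells, 21 of 848 under 5% mitochondrial UMIs, 10 of 859 without the highest doublet scores, 11 of 887 with median-of-ratios scaling, 1 of 887 with a total without members and 19 of 887 as a mean over cells. Medians moved past their interval to 0.69 in Monocytic DCs in thinned cells, to 0.29 in CD8+ T cells and 0.89 in NKT cells under 5% mitochondrial UMIs, and to 1.96 in G-MDSC 2 and 1.49 in Monocytic DCs without the highest doublet scores, and the cause was not tested.

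Counts of members at least 2-fold higher moved by over 1.5 times as follows. The number of members entering changed with the setting, with 651 combinations at 100 UMIs, 650 in thinned cells and 887 before. The share of all genes past 2-fold is not given for these settings, so the counts cannot be set against a background. At 100 UMIs they were 2 in B cells, 10 in CD4+ T cells, 0 in CD8+ T cells, 3 in G-MDSC 1, 3 in G-MDSC 2, 19 in Ki67+ CD8+ T cells, 18 in M-MDSC 1, 8 in migratory DCs, 11 in Monocytes 3, 8 in Mø cluster 2, 4 in NK cluster 2, 13 in NKT cells, 7 in stromal cells and 13 in cDC 1. In thinned cells they were 4 in B cells, 3 in CD8+ T cells, 6 in G-MDSC 1, 4 in G-MDSC 2, 10 in Ki67+ CD8+ T cells, 3 in M-MDSC 2, 10 in migratory DCs, 6 in Monocytic DCs, 24 in Mø cluster 1, 8 in NK cluster 1, 4 in stromal cells and 8 in cDC 1. Under 5% mitochondrial UMIs they were 1 in B cells, 0 in CD8+ T cells and 1 in mast cells. With no minimum they were 16 in B cells, 23 in G-MDSC 1, 26 in G-MDSC 2, 18 in mast cells and 2 in Monocytes 2. Without the highest doublet scores they were 4 in B cells and 5 in CD8+ T cells.

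The difference in median score per cell, APOE4 minus APOE2, was 1.13 in NK cluster 2 with all UMIs (from 2) and 9.5 in pDCs under 5% mitochondrial UMIs (from 6). Without Ifitm3 and Ifi27l2a, which leaves fewer UMIs to count, it was 0 in B cells, 1 in Monocytic DCs and NK cluster 2, 2 in G-MDSC 1, Monocytes 3 and Mø cluster 2, 3 in CD4+ T cells and Ki67+ CD8+ T cells, 4 in G-MDSC 2 and Monocytes 1, 6 in Monocytes 2 and cDC 2, and 9 in M-MDSC 2. Counting error is wide in labels with few cells such as B cells, and too few UMIs per cell left 207 and 171 cells of M-MDSC 1 out of the score.

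Among ratios whose interval excluded 1, these changed direction, and the cause was not tested. Log2 ratios that turned in thinned cells became −0.25 for Oas1g in Monocytes 2 (from 0.57), −0.019 for Oas3 in Monocytes 3 (from 0.73), −0.13 for Bst2 in Monocytes 2 (from 0.17), −0.067 for Slfn2 in Monocytic DCs (from 0.23), −0.067 for Parp9 in Mø cluster 2 (from 0.67), −0.064 for Helz2 in NKT cells (from 1.12), −0.11 for Ifi44 in NK cluster 1 (from 0.52), −0.27 for Lgals3bp in Ki67+ CD8+ T cells (from 0.49), −0.0031 for Lgals3bp in Monocytic DCs (from 0.56), −0.49 for Lgals3bp in stromal cells (from 0.60) and −0.27 for Epsti1 in M-MDSC 2 (from 0.81). Log2 ratios that turned under 5% mitochondrial UMIs became −0.0019 for Usp18 in NKT cells (from 0.70), −0.046 for Ifit1 in NK cluster 1 (from 0.41), −0.018 for Bst2 in pDCs (from 0.10), 0.18 for Ifitm3 in NK cluster 2 (from −0.46), −7.3e-05 for Dtx3l in NKT cells (from 0.82), −0.22 for Ifi27l2a in stromal cells (from 0.89), −0.21 for Ifi27l2a in pDCs (from 1.25) and −0.059 for Rtp4 in NKT cells (from 0.68). Log2 ratios that turned without the highest doublet scores became −0.11 for Ifitm3 in Ki67+ CD8+ T cells (from 1.21) and −0.48 for Ifitm3 in pDCs (from 0.78).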
